A study of Mus musculus with 19 samples.

Results

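The regions described here carried a 5hmC peak in wild-type (WT) mouse pre-iPSCs on day 0 (D0) and none on days 2 and 10 (D2 and D10). They were chosen by merging the deposited peaks of the 9 WT libraries on chromosomes 1 to 19, where peaks sharing at least 1 bp were joined. A merged region was kept when all 3 D0 lists and none of the 6 D2 and D10 lists had a peak in it. The rule kept 7270 of 294585 merged regions, which is 19.4% of the 37551 regions with a peak in all 3 D0 lists. These 7270 are called D0-only regions below, and the remaining 30281 are called the other D0 regions. Because the WT lists chose them, their presence at D0 and absence later in WT are not findings, and the KO and mESC lists, which the rule did not use, carry the comparisons.

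Pre-iPSCs are partly reprogrammed cells, here made from mouse embryonic fibroblasts (MEFs), that have stalled before pluripotency. WT cells had 3 libraries per day, with replicate letters A, B and C, and knockout pre-iPSCs came as KO1 and KO2, each with 1 library on each day. Every pre-iPSC library, D0 included, carries the same treatment label of ascorbic acid with 2i, a GSK3 inhibitor (CHIR-99021) and a MEK inhibitor (PD-0325901). The labels do not name the deleted gene or say whether KO1 and KO2 are clones. V6.5 mouse embryonic stem cells (mESC), labelled with the same treatment, gave 1 library each at 0, 12 and 72 hours.

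5-hydroxymethylcytosine (5hmC) is made when TET enzymes oxidise 5-methylcytosine, and it is an intermediate on one route by which DNA methylation is removed. It is abundant in embryonic stem cells and often found at enhancers and in gene bodies, so its map differs between cell types. Ascorbic acid is a cofactor that raises TET activity, and 2i favours the naive pluripotent state of mouse cells. In the assay, 5hmC is tagged with a modified glucose, coupled to biotin and captured, so a peak marks DNA fragments enriched for 5hmC over background.

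The pre-iPSC lists held between 54997 and 160426 peaks on these chromosomes, and list length bears on any share of regions with a peak. WT D0 C stands apart: it had 61378 peaks against 92100 in A and 114860 in B, and its run name is the only one of 18 without the word input. The number of reads behind each list was not analysed here. Cells were measured in bulk, so fewer cells with 5hmC at a region and less 5hmC per cell cannot be told apart. Positions are on mm9, the build named in the submitters' processing notes, and no annotation of that build was used, so genes and gene features are not given.

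D0-only regions were short and mostly single peaks. Their median width was 483 bp, with quartiles of 407 and 605 bp and a range of 268 to 2144 bp, and together they spanned 3.86 Mb. Merged width cannot be compared with the other D0 regions, since those also hold D2 or D10 peaks by the rule. Within single D0 lists, the median covered length was 369 bp (A), 453 bp (B) and 314 bp (C), against 448, 583 and 379 bp in the other D0 regions. Between 97.9% and 99.7% of D0-only regions held 1 peak per D0 list, against 89.2% (A), 94.6% (B) and 94.1% (C) of the other D0 regions. Where a region held more peaks, their lengths were summed and the highest fold and percentile were taken. Such regions are more frequent among the other D0 regions, which bears on these comparisons. The authors' fold enrichment at the summit had a median of 5.94 in WT D0 A, 6.26 in B and 4.61 in C, against 6.26, 6.80 and 4.65 over the other D0 regions. Ranked by -log10 p within each whole list, the peaks of D0-only regions sat at median percentiles of 65.9, 69.8 and 50.5, and those of the other D0 regions at 69.4, 76.3 and 64. By these medians D0-only peaks stood above the middle of the A and B lists and about at the middle of C. They stood below the peaks of the other D0 regions in all 3. The rule required a peak in each of these lists, so the place within a list is a description only.

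The 3 D0 lists placed their summits close together within these regions. Summits of A and B lay a median of 30 bp apart, and those of C lay 35.0 bp from A and 35.0 bp from B. A stretch shared by all 3 lists was present in 99.5% of D0-only regions, with a median length of 276 bp, and 34 regions had none. For the other D0 regions the share was 98.6% and the median length 321 bp. The rule required a peak of all 3 lists in each short region, so this closeness is a description and not a finding.

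The longest D0-only region was chr11:16795237-16797380, 2144 bp wide. WT D0 B covered 2135 bp of it, A 1511 bp and C 242 bp, so its length came mainly from A and B. KO1 covered 971 bp of it at D0 and KO2 1632 bp, and the only later KO peak was one of KO2 at D2 over 222 bp. The next longest, chr3:131470390-131472463 and chr3:95456398-95458380, were covered in KO at D0 by 1167 and 1141 bp and by 1527 and 1866 bp (KO1 and KO2). Later, both had only KO1 D10 peaks, of 287 and 257 bp. Next came chr6:85915290-85917147, which had no KO peak after D0, and chr8:29854349-29856155, which kept a KO1 D10 peak over 471 bp and a KO2 D2 peak over 273 bp of its 1807 bp.

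The strongest D0-only region, by its lowest percentile in the 3 D0 lists, was chr16:16825402-16826078. Its fold enrichment was 20.7, 17.7 and 11.9 in WT D0 A, B and C, and both KO D0 lists but no later KO list had a peak there. The same KO pattern held for chr14:105874463-105875062, with folds of 16.2, 17.3 and 10.9, and for chr5:97627511-97628186, with folds of 22.0, 25.7 and 7.50. At chr3:116561840-116562475, KO1 had a peak again at D10, over 441 of 636 bp. The remaining one of the 5 strongest, chr3:50499198-50500254, differed from these 4 in having a peak in all 6 KO lists. KO1 covered 1024, 328 and 369 bp of it at D0, D2 and D10, and KO2 covered 945, 663 and 423 bp. In both lines the D0 value was the highest of the 3.

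Regions just outside the rule give its edge. A further 3195 regions had a peak in all 3 D0 lists and in 1 of the 6 later lists, of which 3059 had it at D2 and 136 at D10. Among all D0 regions, 50.5% had a peak in a D2 list and none at D10, whereas 0.546% had one in a D10 list and none at D2. On the other side, 19291 regions had a peak in only 2 of the 3 D0 lists and in no later list. Of these, 87.6% lacked the peak in WT D0 C, 8.36% in A and 4.08% in B. With D0 C left out of the rule, 24211 regions would qualify in place of 7270, so that library sets the number of D0-only regions. The 3 longest of the regions held out by 1 later list were chr9:13492835-13495153 and chr8:42049032-42051328, each with a peak in WT D2 B, and chr4:150197634-150199510, with one in WT D2 A. The 3 longest held out by 1 D0 list were chr3:84927681-84929724, chr12:30513160-30515025 and chr11:74341072-74342844, all lacking a WT D0 C peak.

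Whether the WT pattern holds in a library that did not help to choose it was examined by choosing regions on 2 replicate letters and reading the other one. At D0 the left-out library had a peak in 82.0% (A), 91.1% (B) and 30.9% (C) of 11039, 9846 and 25651 chosen regions. At D2 the values were 18.4%, 12.5% and 5.04%, and at D10 they were 1.34%, 0.741% and 0.639%. The D0 values were all above the D2 values, and the D2 values all above the D10 values. The means were 68.0% ± 32.5, 12.0% ± 6.71 and 0.907% ± 0.379 (SD, n = 3 each). Over all merged regions of these choices, the left-out lists had peaks in 19.6% to 37.8% (D0), 34.1% to 50.5% (D2) and 16.2% to 26.8% (D10). The share differed between days (two-sided exact permutation F, p = 0.00357, the smallest this design can give), and also with the letter as a replicate block (exact p = 0.0278, again the smallest possible). Each pair of days gave an exact permutation p of 0.10, the smallest for 3 against 3 libraries and unchanged by adjustment over 3 comparisons. The chosen sets share libraries between letters, so these 3 values are not fully independent. The regions were chosen by day in the other letters, so these p-values bear only on agreement between letters. They are not read as support for a change between days.

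**Figure D1:**
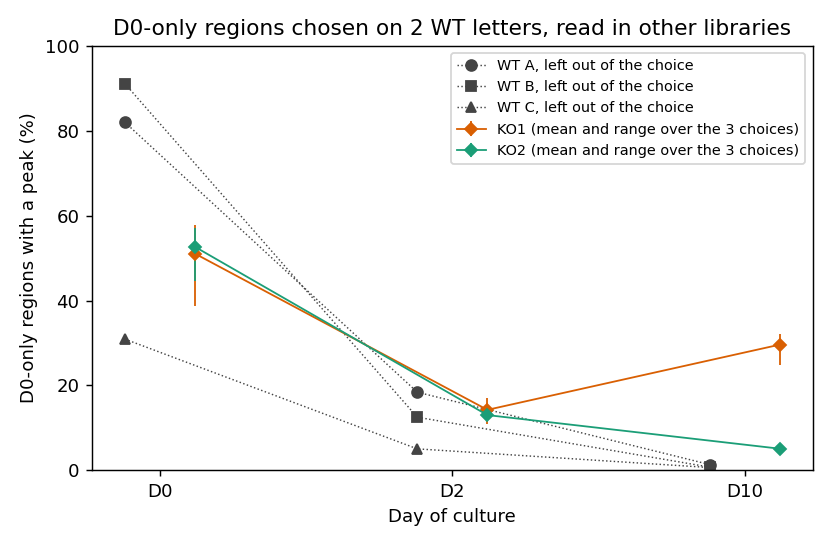
Percentage of D0-only regions chosen on 2 WT replicate letters that have a peak in the left-out WT letter (grey symbols, 1 library each) and in KO1 and KO2 (diamonds, mean with the range over the 3 choices), by day. The WT values fall from between 30.9% and 91.1% at D0 to at most 1.34% at D10, while KO1 stands at 29.6% at D10 and KO2 at 5.07%.

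KO values over the same chosen regions were set beside the left-out WT values. KO1 and KO2 had a peak in 51.0% and 52.6% (D0), 14.2% and 13.0% (D2) and 29.6% and 5.07% (D10), each averaged over the 3 choices. At D0 the KO mean was 16.2 points below the WT mean, within the wide WT spread (exact permutation p = 0.50, adjusted 0.700). At D2 it was 1.61 points above (exact p = 0.700, adjusted 0.700), and without WT D2 C it was 1.87 points below. At D10 it was 16.4 points above, and both KO values lay above all 3 WT values (exact p = 0.10, the smallest for 2 against 3, adjusted 0.300 over 3 comparisons). The D10 difference was 4.17 points without KO1 and 28.7 points without KO2, so its size rested on KO1. Over all merged regions of the same choices, the KO mean at D10 was likewise above the WT mean, by 12.0 points, with both KO lines above all 3 WT values. The corresponding differences were -6.68 points at D0 and -4.65 at D2.

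The 7270 D0-only regions themselves were then read in the KO lists. On D0, KO1 had a peak in 59.5% of them and KO2 in 59.3%, against 19.1% and 23.5% of all merged regions. On D2 the shares were 11.8% and 11.2%, against 40.8% and 30.5% of all merged regions. By D10 they were 28.6% in KO1 and 4.13% in KO2, against 33.9% and 29.8%. Both lines were thus highest at D0, and they lay within 1 point of each other at D0 and D2 but not at D10. The KO1 and KO2 lists at D10 held 111808 and 111075 peaks. They covered 51.8 and 43.1 Mb, with median peaks of 380 and 328 bp. Whether this bears on the D10 shares was not tested. KO lines differ in the style of their run names, so line and any batch those names mark cannot be told apart.

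Over the 6 KO libraries, the share did not pass a test for a difference between days (two-sided exact permutation F, p = 0.200; the smallest possible is 0.0667). With regions chosen without WT D0 C, the KO1 and KO2 shares were 38.1% and 44.0% (D0), 9.50% and 11.3% (D2), and 23.0% and 4.22% (D10). With the 55130 strongest peaks of each list, which gives all lists a single length, they were 56.2% and 44.2%, 2.19% and 4.14%, and 10.7% and 1.43%. The D0 values stayed the highest in both lines under both settings.

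**Figure D2:**
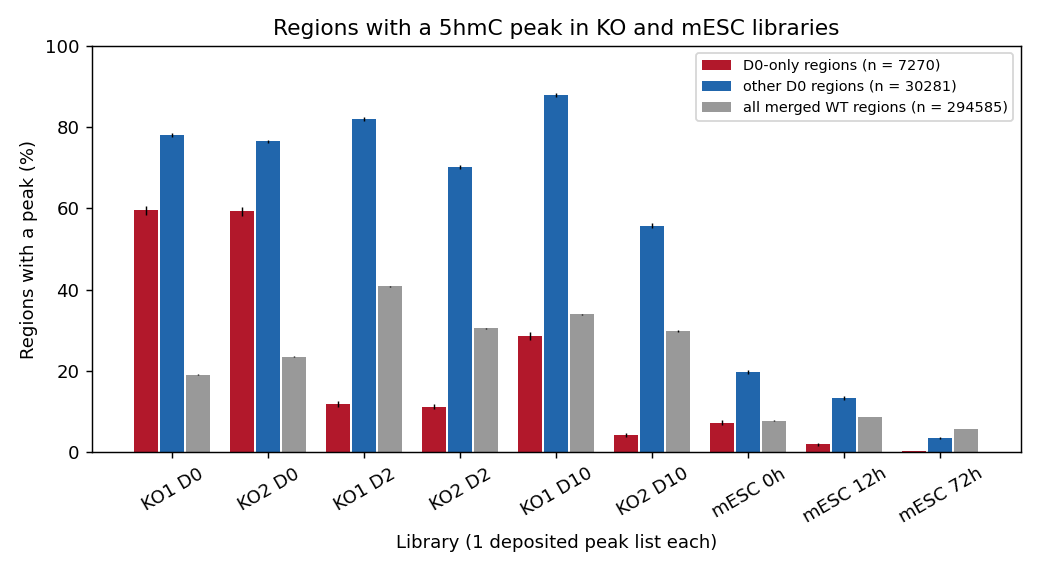
Percentage of regions with a peak in each KO and mESC library, for D0-only regions (red), other D0 regions (blue) and all merged WT regions (grey), with 95% Wilson intervals that cover counting error only. D0-only regions are near 59% in both KO D0 lists, and KO1 at D10 (28.6%) is the only later KO list above 12%.

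Regions with a peak in all 3 WT D0 lists did not all behave alike in KO. The other D0 regions had a KO1 and KO2 peak in 78.1% and 76.5% (D0), 82.1% and 70.1% (D2), and 87.9% and 55.7% (D10). D0-only regions were lower in 6 of 6 KO libraries, by a mean of 46.0 points (two-sided exact sign permutation, p = 0.0312, the smallest that 6 libraries allow). The difference was -17.9 points at D0, -64.6 at D2 and -55.5 at D10. By the rule the other D0 regions have a WT D2 or D10 peak, so the sets were chosen to differ later in WT. The p-value is therefore not read as support for a trait of D0-only regions in KO. The 6 libraries come from 2 lines, and with 1 line left out p could not go below 0.25. Among regions at least as wide as the median D0-only region, the mean difference was -43.1 points. With regions chosen without WT D0 C it was -46.9 points. The width cut has no upper limit and uses merged width, which in the other D0 regions includes D2 or D10 peaks. It does not match the sets in width: before the cut, the upper quartiles were 605 bp (D0-only) and 1091 bp (other). Whether width bears on the difference was therefore not tested. WT D0 strength, which was lower in D0-only regions by median percentile, was not matched or tested either.

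Following each line over time gives the fate of single regions. Of 4323 D0-only regions with a KO1 D0 peak, 57.1% had no KO1 peak at D2 or D10, 15.6% had one at D2 and 38.9% had one at D10. Of 4308 with a KO2 D0 peak, 83.7% had no later KO2 peak, 14.3% had one at D2 and 4.71% had one at D10. For the other D0 regions, the share with no later peak was 4.67% in KO1 and 20% in KO2. In KO1, 1180 D0-only regions (27.3% of those with a D0 peak) had a peak at D0 and D10 but none at D2, against 2.04% in KO2. For the other D0 regions these shares were 10.4% and 4.01%. Of regions with a D0 peak and no D2 peak in a line, D10 peaks were present in 32.3% (KO1) and 2.38% (KO2) of D0-only regions, and in 69.1% and 16.7% of the other D0 regions.

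All 64 possible patterns over the 6 KO lists occurred. They were counted over D0-only regions alone, so no pattern is shown here to be particular to these regions. The most frequent, in 1480 regions (20.4%), was a peak in both KO D0 lists and no other. Next came no KO peak at all, in 1312 regions (18.0%), then a D0 peak of KO2 alone (941 regions) or of KO1 alone (766). A peak in both D0 lists and in KO1 at D10 was found in 672 regions (9.24%). In all, 5634 regions (77.5%) had a D0 peak in at least 1 KO line, 2997 (41.2%) in both, and 324 (4.46%) had a KO peak only after D0.

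**Figure D3:**
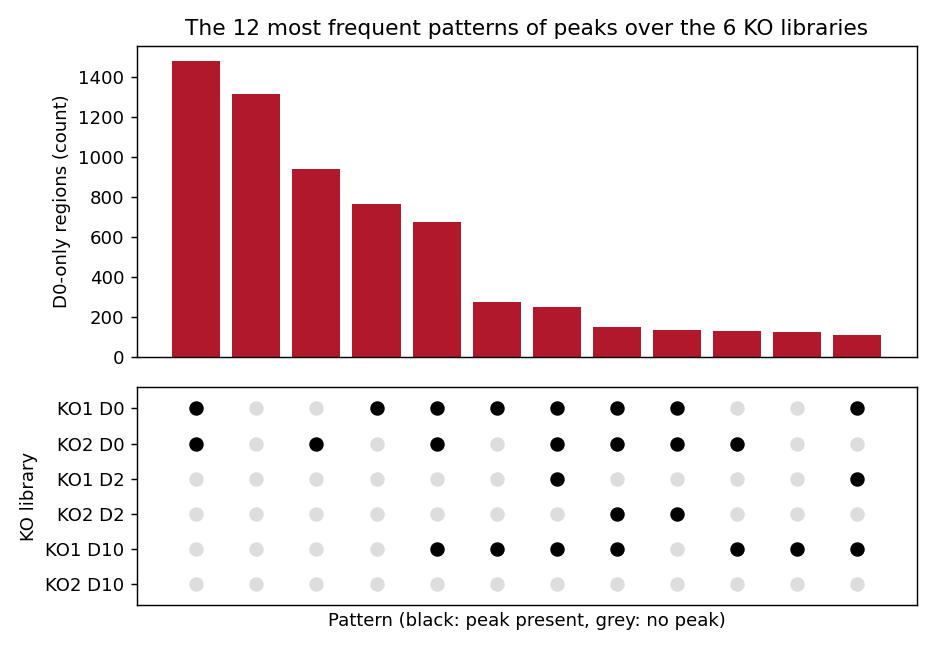
Number of D0-only regions (bars, top) with each of the 12 most frequent combinations of peaks over the 6 KO libraries (dots, bottom; black for a peak, grey for none). The leading bar, 1480 regions, is a peak in both KO D0 libraries alone, and none of these 12 combinations includes a KO2 D10 peak.

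Counts of regions whose KO groups did not overlap were read against all merged regions. A peak in both KO D0 lists and in neither D2 list was found in 2185 D0-only regions (30.1%), where 2.62% of all 294585 merged regions and 5.24% of the other D0 regions had this pattern. For D10 the count was 1710 (23.5%), against 2.04% and 3.13%. The reverse, a peak in both D2 lists or both D10 lists and in neither D0 list, was found in 19 and 17 D0-only regions (0.261% and 0.234%), where 9.24% and 6.83% of all merged regions had it.

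Covered length was tested with limma on log2(covered bp + 100) in the 6 KO libraries, over the 73258 merged regions whose coverage averaged 100 bp or more. Of the 7270 D0-only regions, 2725 (37.5%) passed this filter, which D0 coverage alone can meet. Neither calls nor log2 differences among them are therefore read as support. From D0 to D2, 1650 D0-only regions were lower and 0 higher at a Benjamini-Hochberg adjusted p under 0.05, where 8.22% of all tested regions were lower and 5.29% higher. From D0 to D10, 1639 were lower and 1 higher, where 8.21% of all tested regions were lower and 4.84% higher. The median log2 difference of the D0-only regions tested was -2.28 at D2 and -2.22 at D10, against 0.05 and 0.01 over all regions tested. With any covered bp as filter, 5195 D0-only regions were tested, and their medians were smaller in size, -1.30 and -1.27. Between D2 and D10 limma called 0 D0-only regions, with 3 higher and 0 lower at an unadjusted p under 0.05, where 1.24% of all tested regions were higher and 1.81% lower. These calls were not robust: with the KO line as a replicate block, limma called 0 regions in every contrast, while 1871 D0-only regions at D2 and 1760 at D10 were lower and 0 and 1 higher at an unadjusted p under 0.05. At that threshold 10.7% and 9.93% of all tested regions were lower and 7.13% and 6.44% higher. They also went to 0 under a looser filter, a pseudocount of 500 bp, unscaled lists, and without either KO D0 or either KO D2 library; without KO2 D10 the D10 calls went to 0.

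The strength and placing of the KO peaks over D0-only regions are given as a description, since the lists differ in length. On D0, KO peaks over D0-only regions had a median fold of 5.42 (KO1) and 5.85 (KO2), where the whole lists had 5.11 and 5.46. On D2 the medians were 4.51 and 4.46, where the whole lists had 5.03 and 4.76. For D10 they were 4.82 and 4.36, where the whole lists had 5.10 and 4.57. KO D0 summits lay a median of 34.0 bp (KO1) and 35.0 bp (KO2) from the WT D0 B summit, as close as WT replicates to each other. At D2 the distances were 101 and 78.0 bp, and at D10 they were 50.0 and 130 bp. Within 100 bp of the WT D0 B summit lay 69.6% of the KO1 D10 peaks and 42.3% of the KO2 D10 peaks.

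The 2077 D0-only regions with a KO1 D10 peak were compared with those without one. Their median width was 532 against 466 bp, and 81.0% against 50.8% also had a KO1 D0 peak. A KO1 D2 peak was present in 28.2% against 5.31%. The KO2 lists split the same way, with a D0 peak in 68.8% against 55.5% and a D2 peak in 19.8% against 7.70%. Regions with a KO1 D10 peak also had a higher median lowest WT D0 percentile, 40.6 against 34.3. Whether width or strength bears on these shares was not tested. KO2 at D10 had a peak in 300 D0-only regions, and 141 regions had both, which is 47.0% of the KO2 set and 6.79% of the KO1 set.

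D0-only regions that were stronger in WT at D0 more often had KO peaks at D0. Ranked by their lowest percentile in the WT D0 lists and divided into 4 classes of 1735 to 1898 regions, the share with a KO1 D0 peak was 45.8%, 51.8%, 60.7% and 78.8% from weakest to strongest. For KO2 at D0 it was 49.7%, 54.0%, 57.9% and 75%. At D10 the KO1 share was 25.6% in the weakest class and 34.2% in the strongest, and the KO2 share was 5.19% and 3.96%. At D2 the shares were 12.9% and 10.5% in KO1 and 12.2% in both end classes in KO2, with no order by strength.

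A small group had KO peaks on every day, at 1 bp of overlap. The 22 regions with a peak in all 6 KO lists (0.303%) included chr10:40573971-40575262, chr10:93919031-93920233, chr4:6769239-6770427 and chr19:16081525-16082575, which with chr3:50499198-50500254 were the 5 longest. At chr10:93919031-93920233, KO1 covered 490, 1066 and 595 bp at D0, D2 and D10, and KO2 covered 526, 312 and 271 bp, so the lines moved in opposite directions at D2. At chr19:16081525-16082575, KO1 covered 629, 309 and 592 bp and KO2 585, 394 and 313 bp. At chr10:40573971-40575262, KO1 was highest at D10 (771 bp) and KO2 at D0 (1030 bp). No WT D2 or D10 list had a peak in any of them, by the rule. The pattern was counted over D0-only regions alone. When a peak had to cover 50% of the region, none of the 5 longest kept all 6 KO lists. The number was 3 at chr3:50499198-50500254 and at chr19:16081525-16082575, and 2 at chr10:40573971-40575262. It was 1 at chr10:93919031-93920233 and 0 at chr4:6769239-6770427.

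The opposite case is a peak in both KO D0 lists and none later. Its longest regions, after chr6:85915290-85917147, were chr6:48845556-48847108, chr9:111771914-111773363, chr13:19294389-19295837 and chr5:125323106-125324499. At chr9:111771914-111773363, KO1 covered 1288 of 1450 bp and KO2 865 bp. At chr5:125323106-125324499, KO1 covered 1265 and KO2 958 of 1394 bp. At chr6:48845556-48847108 the KO peaks were short, 138 and 375 of 1553 bp.

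Among the 1312 regions without any KO peak, the longest was chr15:38401369-38402674, where WT D0 A, B and C covered 967, 1182 and 521 of 1306 bp. The next were chr13:95859884-95861061, chr3:68034789-68035892, chr6:77297447-77298537 and chr13:38404035-38405087. Their lowest WT D0 percentiles ran from 17.8 to 63.1, so 3 of the 5 were above the middle of every WT D0 list.

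D0-only regions lay on all 19 chromosomes, from 195 on chromosome 19 to 595 on chromosome 1, and made up 15.8% (chromosome 17) to 23.7% (chromosome 1) of the D0 regions of a chromosome. Chromosome 5 stood apart in the KO lists. There KO1 had a peak in 81.9% of D0-only regions on D0, 33.8% on D2 and 58.7% on D10, while its shares on the other chromosomes ran from 49.8% to 62.6%, from 7.54% to 13.0% and from 22.5% to 31.5%. KO2 had 59.4%, 5.81% and 2.37% on chromosome 5, and its D2 and D10 values there were below those of all other chromosomes (8.21% to 14.7% and 2.82% to 8.21%). The other D0 regions also had more KO1 peaks on chromosome 5 than elsewhere (93.8% against 77.1% at D0). Their KO2 shares were likewise lower there, 64.6% against 70.5% at D2 and 47.4% against 56.3% at D10. Of the KO1 D0 list 10.3% lay on chromosome 5, and of the KO2 lists 5.56% (D0), 4.76% (D2) and 4.29% (D10). The low KO2 shares there were thus not particular to D0-only regions. Without chromosome 5, the KO1 shares were 57.9%, 10.3% and 26.5%, so the D10 value of KO1 did not rest on it.

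**Figure D4:**
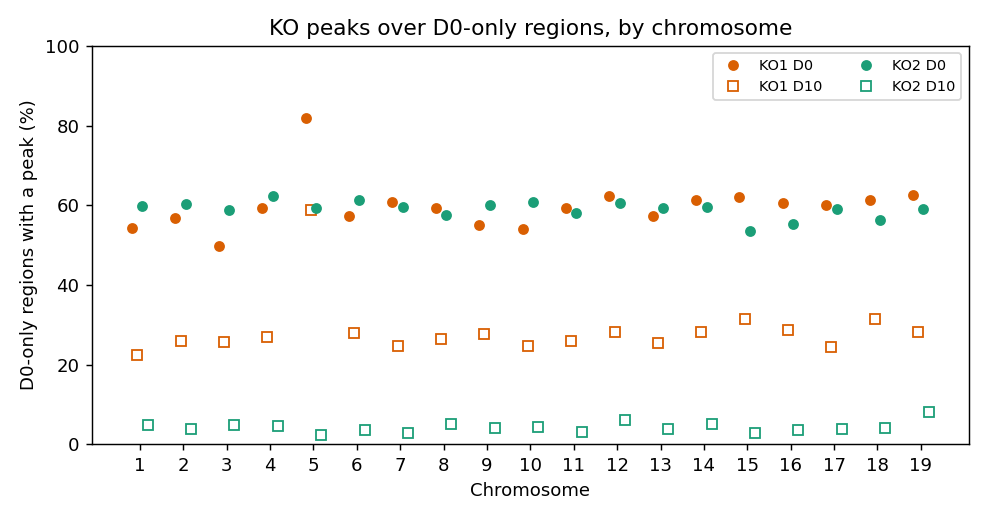
Percentage of D0-only regions with a peak in KO1 (orange) and KO2 (green) at D0 (filled circles) and D10 (open squares), for each of the 19 chromosomes. Chromosome 5 has the highest KO1 values, 81.9% at D0 and 58.7% at D10, and KO1 lies above KO2 at D10 on every chromosome.

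In mESC, D0-only regions seldom had a peak. The share was 7.19% at 0 hours (523 regions; 95% Wilson interval 6.62% to 7.81%), 1.93% at 12 hours (140; 1.63% to 2.27%) and 0.248% at 72 hours (18; 0.157% to 0.391%). These intervals cover counting error only, and with 1 library per time no test was made. Over all merged regions the shares were 7.78%, 8.63% and 5.66%, and over the other D0 regions 19.7%, 13.3% and 3.44%. The 12325 regions with a peak in all 3 WT D0 and all 3 D2 lists and no D10 list had 18.3%, 6.38% and 0.495%, so low shares at 12 and 72 hours were not particular to D0-only regions. The 0 hour value for D0-only regions was thus near that of all merged regions, and the 12 and 72 hour values were below it. With regions chosen without WT D0 C, the shares were 3.82%, 1.41% and 0.302%. The mESC lists held 30603, 33496 and 23876 peaks, and a label states that peaks were not called for these samples, although each has a list.

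No mESC peak was present in 6627 D0-only regions (91.2%), 491 had one at 0 hours alone, 37 in at least 2 lists and 1 in all 3. The 5 longest with at least 2 were chr1:187855304-187856843, chr8:48393573-48394886, chr8:96798051-96799356, chr6:17120926-17122147 and chr8:10972326-10973527. Chromosome 8 had the shares 12.3%, 6.15% and 1.12% at 0, 12 and 72 hours, and it also held 13.2% and 12.0% of the whole 12 and 72 hour lists, against 6.99% of the 0 hour list. The 523 regions with a 0 hour peak had a KO1 D0 peak in 71.7% and a KO2 D0 peak in 66.0%. For the rest these shares were 58.5% and 58.7%. The 523 were also wider (median 518 against 481 bp) and stronger in WT at D0 (median lowest percentile 46.7 against 36.1). Whether width or strength bears on the difference was not tested.

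Distances from D0-only regions to WT peaks of later days are given without an expected value. By the rule, none of these peaks touches a D0-only region. The nearest WT D2 peak, over all 3 D2 lists, was a median of 2.13 kb away, within 1 kb for 34.7% and within 5 kb for 65.7% of regions. The nearest WT D10 peak was a median of 6.32 kb away, within 1 kb for 13.4%. The D2 lists merged to 188082 regions and the D10 lists to 123382, which bears on these distances. The converse set, regions with a peak in all 3 D2 lists and in no WT D0 or D10 list, lay a median of 1.59 kb from the nearest D0 peak. Requiring no later peak within 1000 bp would leave 4507 of the 7270 regions.

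**Figure D5:**
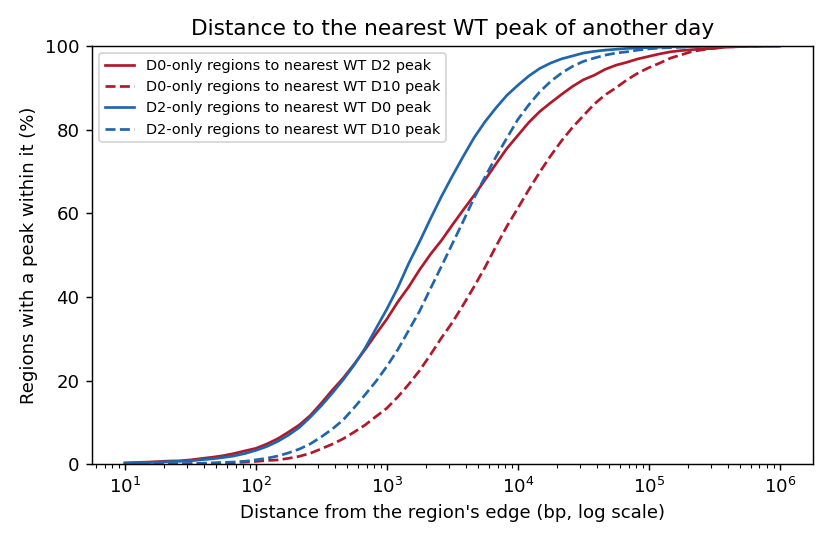
Percentage of D0-only regions (red) with a WT peak of D2 (solid) or D10 (dashed) within a given distance of the region's edge, on a log axis, beside D2-only regions (blue) and peaks of D0 and D10. The D2 curve of D0-only regions reaches 34.7% at 1 kb and the D10 curve 13.4%.

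The spacing of D0-only regions is given without an expected value. The nearest other D0-only region was a median of 65.5 kb away, within 1 kb for 2.56%, and 1928 of 2174 windows of 1 Mb with a D0 region held at least 1. The fullest window was chr7:143000001-144000000, where 19 of 41 D0 regions (46.3%) were D0-only. Next were chr11:19000001-20000000 and chr12:16000001-17000000 with 14 each, then chr1:62000001-63000000 and chr6:50000001-51000000 with 13 each. In these 4 windows D0-only regions made up 30.2% to 33.3% of D0 regions.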

How the data were processed

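5hmC-enriched DNA (sonicated to 200 to 500 bp, 14 PCR cycles, per the labels' protocols) was sequenced in 18 libraries. The authors used Bowtie, SAMtools and MACS2 on mm9, per the submitters' processing notes, with no versions in the sources used here. Each library has its own deposited peak list, and run names carry a p threshold of 0.0001. The deposited columns give each peak's score, its fold enrichment (a ratio), -log10 p and -log10 q. These are the authors' values and were used only to describe, rank or filter peaks within a list. Groups follow the titles. No label states that replicates are separate cultures. The p-values therefore reflect spread among these libraries only, and that spread may be technical.

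Peaks on chromosomes 1 to 19 were merged at 1 bp of overlap, and a region has a peak in a library when it shares at least 1 bp with one. Two-sided exact permutation over libraries was used for shares. Covered bp under the 55130 strongest peaks, scaled to the mean total, entered limma 3.58.1 (R 4.3.3, trend and robust). Benjamini-Hochberg adjustment was made within each contrast. An earlier run on simulated data used normal noise around region means, and it is not read as support for the calls. The titles KO1 and KO2 recur on each day and were read as 1 line each, which pairs KO libraries; their deviations from the day means correlated by 0.173 to 0.227 (0.15 to 0.207 without chromosome 5), over regions. Named regions are the 5 longest, the 5 strongest, the 5 longest of each KO or mESC pattern, the 5 fullest windows of 1 Mb and the 3 longest on each side of the rule's edge. The regions and these rules were chosen with earlier results of these data known. Alternatives were other lists, overlaps, thresholds and libraries left out. Python 3.11.15 with numpy 2.4.6, pandas 2.3.3 and scipy 1.17.1 was used. No gene or marker test was run, for want of an mm9 annotation used here.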

Additional observations from a re-analysis of the deposited data

Results flagged for a closer look

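The share of D0-only regions with a peak moved in opposite directions between D2 and D10 in the KO lines, by 16.7 points in KO1 and by -7.03 points in KO2. Each line has 1 library per day, so this difference between the lines was not tested. Over the other D0 regions the same differences were 5.84 and -14.4 points.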

How the results depend on the processing

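The number of D0-only regions was 4507 with no later peak allowed within 1000 bp and 26561 with 2 of 3 D0 lists. With 1 WT library left out it ran from 7308 to 24211, the highest without WT D0 C. A -log10 q of at least 2 removed no pre-iPSC peak, since the lowest was 2.11, and one of at least 5 left 6747 regions. In the left-out WT libraries, D2 minus D0 was -71.1 to -44.7 points and D10 minus D0 -85.5 to -55.4 points with 1 letter left out. The exact permutation F then gave p = 0.0667, the smallest for that design, and with the replicate block p was 0.0278. These p-values bear only on agreement between letters. KO minus WT at D2 ran from -1.87 (without WT D2 C) to 4.82 points. For the KO shares by day, the replicate block gave an exact p of 0.333, with 0.167 the smallest possible. D0-only against other D0 regions in KO was -49.4 to -42.6 points with 1 line left out (exact sign permutation p = 0.25, the smallest possible).

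For limma, the D2 and D10 calls against D0 went to 0, for D0-only and for all regions and in both directions, with any covered bp as filter, with a pseudocount of 500 bp, with unscaled lists and with the replicate block. Unscaled lists also moved the median log2 difference of all regions to 0.95 (D2) and 0.76 (D10), with D0-only regions at -2.07 and -1.57. With 1 library left out, lower calls ran from 0 to 9796 (D2) and 0 to 11158 (D10) over all regions, higher calls from 0 to 8440 and 0 to 6976, and D0-only lower calls from 0 to 1995 and 0 to 1888; without KO1 D10 they were 9697 lower and 8383 higher at D2. With all 15 pre-iPSC libraries, 2 D0-only regions were higher at D10 against D0 and 2 at D10 against D2, where 266 regions in all were lower and 184 higher. With regions chosen without WT D0 C, added after seeing the data, 2811 (D2) and 2790 (D10) were lower. The cause of these changes was not tested.

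The mESC shares at 0, 12 and 72 hours moved with a -log10 q of at least 5 (added after seeing the data) to 5.36%, 0.702% and 0.138%. With lists of a single length they were 5.86% and 1.51% at 0 and 12 hours, and with regions chosen without WT D0 C 3.82% and 1.41%. Of 28 named regions, 11 kept their number of KO lists when a peak had to cover 50% of the region, and 16 with the strongest peaks. Read depth was not analysed here, so a missing peak is not shown to be missing 5hmC.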
